A study of Mus musculus with 8 samples.

Results

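The genes described here are Ifng and 9 other effector cytokine and ligand genes of T cells, namely Tnf, Lta, Ltb, Csf2, Il2, Il10, Fasl, Tnfsf10 and Tnfsf14. They were chosen by name for their function, with earlier results of these data known. All 10 are listed among the 17495 genes measured in all sorted OT-I cells and among the 13126 rows of the table of the Tim-3+ subset. Polyadenylated RNA was measured in 8 libraries of mouse CD8+ T cells. The T cell receptor transgene of OT-I cells recognizes a peptide of ovalbumin, the antigen that the melanoma line B16-OVA was made to express. In all groups, naive OT-I cells were given to B6 mice 1 day before B16-OVA cells were implanted under the skin, and OT-I cells were sorted from the tumors after 30 days. Zbtb32-/- and wild-type (WT) cells shared a recipient. The 4 groups were all sorted OT-I cells labelled Zbtb32 knockout (KO) or WT, and the Tim-3+ Ttex subset of each genotype, with 2 libraries per group. The sources used here give neither the ages of the mice nor the animals behind each library, and p-values measure the spread between these libraries only, which may be technical.

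CD8+ T cells act on tumors partly by secreted cytokines and partly by ligands held on their surface. Interferon gamma, encoded by Ifng, raises antigen presentation and chemokine output in cells that carry its receptor, and TNF and the lymphotoxins signal through receptors of the TNF family. Fas ligand and TRAIL trigger death receptors, GM-CSF and IL-2 act on myeloid and lymphoid cells, and IL-10 restrains myeloid cells. Output of several of these genes is known to fall during T cell exhaustion, the state of chronically stimulated T cells to which the labels assign the Tim-3+ cells.

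The libraries of all sorted OT-I cells held 18.6 to 21.05 M recovered reads each, and those of Ttex cells 51.6 to 59.2 M. Zbtb32 RNA did not check the labels: in FPKM, a read level scaled to exon length and library depth, it was at 94.9 and 73.0 in KO-labelled and 79.8 and 87.1 FPKM in WT-labelled libraries with all OT-I cells sorted, and at 6822 and 5715 against 3976 and 3951 normalized counts in Ttex cells. Groups are therefore named by their labels, and Cd8a and Cd3e, which define the sorted cells, were expressed in all 8 libraries. Of 8 T cell markers, 3 (Thy1, Cd3d and Cd3g) were called lower in KO-labelled all sorted OT-I cells, against 30.4% of all genes tested. After each library was centred on its median gene, 1 was called lower, against 11.9% of all genes. Without centring, 3 of 4 tested melanoma markers were called higher and 1 was called lower in the same cells. All 4 tested red blood cell markers were called higher, where 2.45% of all genes were. Summed markers of macrophages, monocytes and dendritic cells differed with genotype in opposite directions in the 2 populations. Their level was 61.2 and 53.8 FPKM in KO-labelled against 207 and 198 FPKM in the WT-labelled libraries before the Tim-3 gate. There, 8 of 9 tested markers were called lower, against 30.4% of all genes tested. None of the 12 listed was at 0 in all 4 of these libraries. In Ttex cells the sum was 21113 and 18403 against 12042 and 10924 normalized counts. Of 12 markers, 0 were called by limma and 7 were higher by DESeq2, against 2.56% of all genes. At an unadjusted p under 0.05, 10 were higher, against 1789 of 12559 genes in either direction. The part of myeloid, melanoma and red blood cells in any result below was not tested. In bulk RNA, fewer cells expressing a gene and less RNA per cell cannot be told apart.

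Interferon gamma was the member that separated the genotypes most in all sorted OT-I cells. Ifng RNA was at 26.6 and 21.6 FPKM in KO-labelled libraries and at 318 and 253 FPKM in WT-labelled libraries. The groups did not overlap, and the WT-labelled mean of 285 ± 45.8 FPKM was 11.8 times the KO-labelled mean of 24.1 ± 3.53 FPKM (SD, n = 2). The values rest on 740 and 651 recovered reads against 7951 and 6555. The log2 fold change, given as KO-labelled over WT-labelled on log2(FPKM + 1), was -3.51 (SE 0.22, limma adjusted p = 1.07e-50). Of 9574 genes tested, Ifng ranked 1 by the size of its change on this scale, which understates the changes of low genes. A log2 fold change under -2 was found for 9 genes, among them Ifng and the myeloid markers C1qa (-2.05) and C1qb (-2.09). The SE in this comparison is that of genes at a similar level, because limma estimated no spread beyond the trend; edgeR, on recovered reads, gave -3.48 (adjusted p = 9.42e-11). The median over all tested genes was -0.24, and after each library was centred on its median gene Ifng was at -3.26 (limma adjusted p = 1.63e-15).

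Ifng lies on chromosome 10 from 118441046 to 118445892 on the plus strand of mm10 (GENCODE M21). Its promoter is shown because Ifng fell most, beside that of Tnfsf14, the member with higher values in all 4 KO-labelled libraries, a pair chosen after their values were seen. Each runs from 250 bases before the gene start to 50 after it, in the direction of transcription, at chr10:118440796-118441095 (plus strand) and chr17:57194132-57194431 (minus strand), from RefSeq on GRCm38.p6. Capitals mark GGAAA (the core bound by NFAT factors), TGANTCA (AP-1) and AGGTGT (a T-box site), searched on both strands.
Ifng: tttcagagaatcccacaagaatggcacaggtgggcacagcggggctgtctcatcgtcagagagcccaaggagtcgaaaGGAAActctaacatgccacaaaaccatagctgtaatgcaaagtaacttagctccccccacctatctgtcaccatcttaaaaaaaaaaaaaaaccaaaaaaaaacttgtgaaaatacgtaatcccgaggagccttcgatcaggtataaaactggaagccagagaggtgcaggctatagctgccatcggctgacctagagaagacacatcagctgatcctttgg
Tnfsf14: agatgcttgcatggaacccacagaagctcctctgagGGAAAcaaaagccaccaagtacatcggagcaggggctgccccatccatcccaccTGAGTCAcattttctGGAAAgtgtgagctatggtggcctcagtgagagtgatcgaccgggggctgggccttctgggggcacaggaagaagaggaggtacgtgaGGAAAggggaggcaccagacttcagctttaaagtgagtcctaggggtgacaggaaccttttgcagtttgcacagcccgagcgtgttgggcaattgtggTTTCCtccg
The Ifng window held 1 match, to GGAAA, and the Tnfsf14 window held 4 matches to GGAAA and 1 to TGANTCA. All 9 members with a promoter entry held GGAAA, as did 61.3% of 32851 promoters. TGANTCA was found in 1 member, Tnfsf14, against 7.8% of promoters, and AGGTGT in 2 members, Tnf and Ltb, against 13.7%.

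Of the 10 genes, 9 passed the filter (a mean of 1 FPKM or more) in all sorted OT-I cells. Of these 9, Ifng, Csf2 and Il10 were called lower in KO-labelled libraries and 0 were called higher. Over all tested genes, 30.4% were called lower and 2.45% higher. The median log2 fold change was -0.37 over the members tested, against -0.24 over all genes tested. After centring, 2 of 9 were called lower (Ifng and Il10) and 1 was called higher (Tnfsf14), against 11.9% and 10.7% of all genes.

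**Figure D1:**
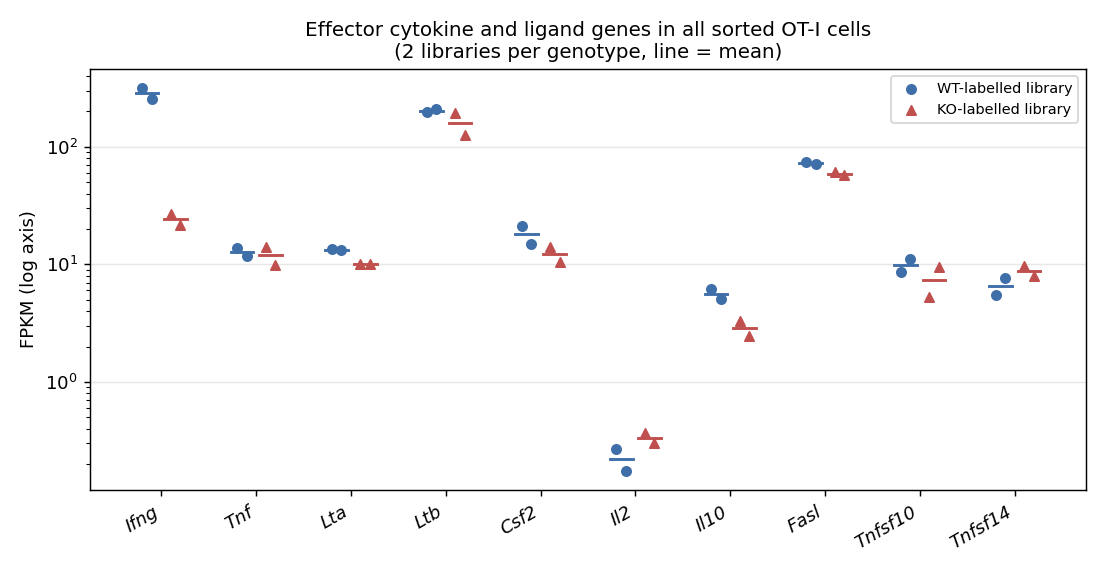
FPKM (log axis) of the 10 genes in the 4 libraries from all sorted cells; each point is a library and each line the mean of 2. Ifng stands at 318 and 253 FPKM in WT-labelled and at 26.6 and 21.6 FPKM in KO-labelled libraries, while Tnf and Tnfsf10 overlap between the genotypes.

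The 3 genes Ltb, Tnf and Lta lie within 10.9 kb on chromosome 17 and encode lymphotoxin beta, TNF and lymphotoxin alpha. Tnf was at 14.0 and 9.89 FPKM in KO-labelled and 13.8 and 11.9 FPKM in WT-labelled libraries from all sorted cells. The genotypes overlapped, with a log2 fold change of -0.11 (SE 0.19, limma adjusted p = 0.703) that turned to 0.14 when centred on the median gene. Lta, whose product forms a soluble trimer or pairs with lymphotoxin beta, was at 10.14 and 10.02 against 13.4 and 13.3 FPKM. Both KO-labelled libraries were below both WT-labelled libraries, but the change of -0.37 (SE 0.19, limma adjusted p = 0.117) did not pass the threshold. Ltb, the membrane-held partner, was at 192 and 127 against 196 and 207 FPKM. KO-labelled replicate 2 was the low library, and the change was -0.37 (SE 0.23, limma adjusted p = 0.221), with -0.67 (limma adjusted p = 0.0297) without KO-labelled replicate 1 and -0.0701 (limma adjusted p = 0.881) without KO-labelled replicate 2.

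Of the other ligands held on the membrane, none passed the test. Fasl, which encodes Fas ligand, was at 61.1 and 57.2 FPKM in KO-labelled and 73.6 and 71.4 FPKM in WT-labelled libraries from all sorted cells, a change of -0.29 (SE 0.22, limma adjusted p = 0.327), close to the median gene. Tnfsf10, which encodes TRAIL, was at 5.30 and 9.45 against 8.65 and 11.04 FPKM. The genotypes overlapped, and the change of -0.41 (SE 0.18, limma adjusted p = 0.0653) missed the threshold; without KO-labelled replicate 2 it was -0.78 (limma adjusted p = 0.0045), and without KO-labelled replicate 1 it was -0.0448 (limma adjusted p = 0.909). Tnfsf14, which encodes the costimulatory ligand LIGHT, was at 9.71 and 8.01 against 5.52 and 7.65 FPKM. It was the 1 tested member with a higher mean in KO-labelled libraries, with a change of 0.39 (SE 0.18, limma adjusted p = 0.0793) that reached 0.64 (limma adjusted p = 0.00318) after centring and 0.59 (limma adjusted p = 0.0443) without WT-labelled replicate 2. Without WT-labelled replicate 1 it was 0.18 (limma adjusted p = 0.67).

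Among the secreted cytokines, Il10 fell and Csf2 fell by a margin that depended on the scaling. Il10, which encodes the inhibitory cytokine IL-10, was at 3.27 and 2.46 FPKM in KO-labelled and 6.16 and 5.07 FPKM in WT-labelled libraries from all sorted cells. Both KO-labelled values were below both WT-labelled values, from 92 and 75 against 156 and 133 recovered reads, with a log2 fold change of -0.78 (SE 0.16, limma adjusted p = 2.5e-05). It was called lower in all 12 alternative fits, with adjusted p-values up to 0.031. Macrophages also make IL-10, and the myeloid markers given above were lower in the same libraries. So were both markers of CD4 or regulatory T cells, which can make IL-10: Foxp3 was at 0.458 and 0.226 against 1.90 and 1.83 FPKM (limma adjusted p = 1.09e-13), and Cd4, below the filter, at 0.312 and 0.395 against 1.26 and 1.54 FPKM (edgeR adjusted p = 9.44e-05). The part of these cells in the Il10 result was not tested. Csf2, which encodes GM-CSF, was at 13.9 and 10.5 against 21.4 and 15.0 FPKM. Its change was -0.53 (SE 0.19, limma adjusted p = 0.0228), but -0.28 (limma adjusted p = 0.264) after centring, -0.35 without KO-labelled replicate 2 and -0.29 without WT-labelled replicate 1, with no call in any of these, and edgeR gave an adjusted p of 0.0878. Il2, the T cell growth factor gene, was below the filter at 0.366 and 0.301 against 0.271 and 0.175 FPKM, from 9, 8, 6 and 4 recovered reads, and was not tested. The authors' deposited table, from DESeq2, gave -3.51 for Ifng (adjusted p = 3.06e-63), -0.92 for Il10 (adjusted p = 0.0303) and -0.53 for Csf2 (adjusted p = 0.167), and called lower 15.4% of the 14781 genes to which it gives an adjusted p.

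In Ttex cells, where values are counts divided by a size factor per library, Ifng stood at 15219 and 13085 normalized counts in the KO-labelled and 15443 and 15759 in WT-labelled libraries. Both KO-labelled libraries were below both WT-labelled libraries, by little, with a log2 fold change of -0.14 (SE 0.13, limma adjusted p = 0.619). All 10 genes passed the filter of a mean of at least 10 normalized counts, and 0 were called by limma, against 0.0239% of all 12559 genes tested. Of the 10 members, 1 (Tnfsf14) had an unadjusted p under 0.05, as did 1789 of the 12559 genes tested; edgeR called 0 (0.128% of all genes), and DESeq2 called 2 higher (Csf2 and Tnfsf14), against 2.56% of genes. The median over the members was 0.11, against -0.06 over all genes tested.

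Tnfsf14 had the strongest evidence of a difference among the 10 genes in Ttex cells. Its values were 1803 and 1527 normalized counts in KO-labelled and 875 and 634 in WT-labelled libraries. The groups did not overlap and the KO-labelled mean was 2.21 times the WT-labelled mean, from 673 to 1673 recovered reads per library. The change of 1.15 (SE 0.22) had a limma adjusted p of 0.182, while DESeq2 gave 1.18 (adjusted p = 0.000184). Markers of myeloid, melanoma and red blood cells were higher in the same KO-labelled Ttex libraries: the 6 melanoma markers summed to 50584 and 53553 against 23893 and 24382 normalized counts, and the 5 red blood cell markers to 17857 and 10643 against 3412 and 2138. Their part in the Tnfsf14 difference was not tested.

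Csf2 stood apart in 1 Ttex library. Its values were 854 and 220 normalized counts in KO-labelled and 170 and 175 in WT-labelled libraries. KO-labelled replicate 1 was the high library, and the change of 1.32 (SE 0.60, limma adjusted p = 0.376) was 0.35 without it. DESeq2 called this gene at 1.68 (adjusted p = 0.042) with all 4 libraries.

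The other 7 genes showed no difference that passed a test in Ttex cells. Tnf was at 2082 and 1632 against 2053 and 1426 normalized counts, Lta at 1520 and 1382 against 1139 and 1359, and Ltb at 25261 and 20734 against 22917 and 19673, so that Tnf and Ltb overlapped between the genotypes and Lta was slightly higher in KO-labelled cells. Fasl was at 4485 and 5860 against 5505 and 6145, and Tnfsf10 at 2439 and 1787 against 2431 and 2545, both overlapping. Il2 was low, at 42.0 and 68.0 against 42.4 and 40.5 normalized counts. Il10 varied most between replicates, at 40.9 and 149 against 101 and 81.0, and its SE was 0.65. Over these 7 genes the log2 fold changes ran from -0.25 (Tnfsf10) to 0.36 (Il2), with limma adjusted p-values from 0.533 to 0.906.

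**Figure D2:**
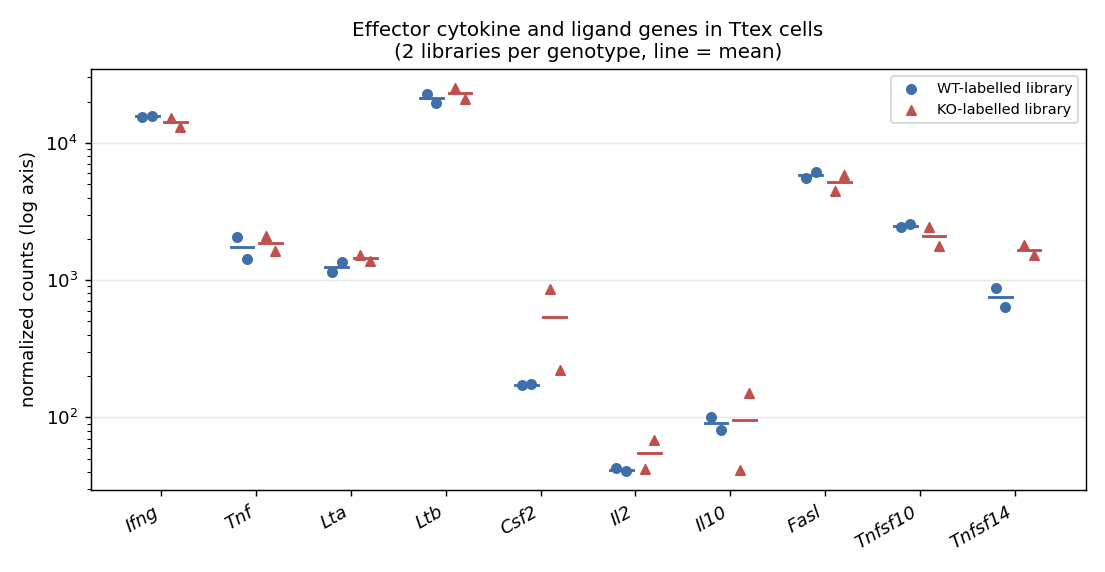
Normalized counts (log axis) of the 10 genes in the 4 Ttex libraries; each point is a library and each line the mean of 2. Ifng lies between 13085 and 15759 in all 4 libraries, Tnfsf14 is higher in both KO-labelled libraries, and Csf2 is high in KO-labelled replicate 1.

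The genotype effect on Ifng differed between the populations. The difference, the log2 fold change in Ttex cells minus that in all sorted OT-I cells, was 3.36 (SE 0.25, limma adjusted p = 1.45e-05, interaction term over 8 libraries), and edgeR gave 3.23. It was past the threshold in all 13 alternative fits, where it ran from 3.20 to 3.53. The signed log2 fold change was higher in Ttex cells for each of the 9 members tested. Of these, 1 (Ifng, nearer to 0 in Ttex cells) was called higher and 0 were called lower. Over the 8958 genes tested, 10.4% were called higher and 0.982% lower. Csf2 was at 1.85 (SE 0.61, limma adjusted p = 0.0634), Tnfsf14 at 0.77 (SE 0.28, limma adjusted p = 0.0924) and Lta at 0.59 (SE 0.21, limma adjusted p = 0.0881), against a median of 0.17 over all genes. KO-labelled Ttex replicates decided several of these calls: without replicate 2, Csf2 was at 2.83, Tnfsf14 at 0.89 and Lta at 0.66, all called, and without replicate 1 Csf2 was at 0.88 and Il10 at 1.5, both called. For Tnf, Ltb, Il10, Fasl and Tnfsf10 the difference ran from 0.11 to 0.57, with limma adjusted p-values of at least 0.302. Population coincides with the deposited table and its processing, so the term carries both, and the myeloid markers named above also differed in this test, in 8 of 9 cases. In Ttex cells Tcf7 was at 2646 and 2536 in KO-labelled against 651 and 678 normalized counts in WT-labelled libraries (limma adjusted p = 0.0471). Havcr2, which encodes Tim-3, was at 10828 and 10642 against 15862 and 15935 (limma adjusted p = 0.182, DESeq2 adjusted p = 0.0211). Before the Tim-3 gate Tcf7 was at 20.8 and 20.1 against 10.6 and 11.6 FPKM, and Havcr2 overlapped between the genotypes. The part of these differences in the Ifng result was not tested.

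**Figure D3:**
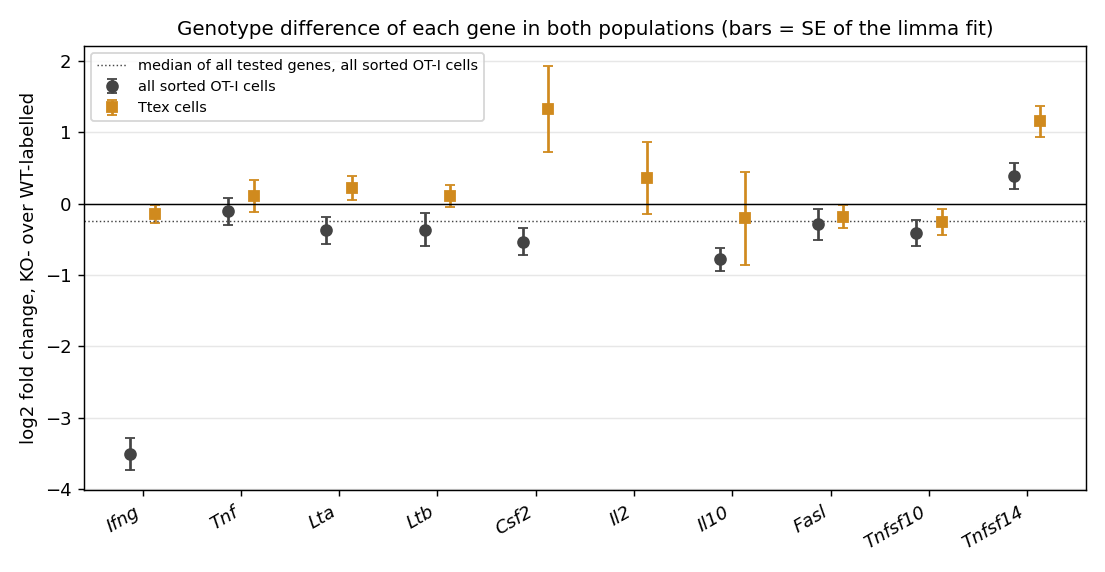
Log2 fold change, KO-labelled over WT-labelled, of each gene in all sorted OT-I cells (circles) and Ttex cells (squares), with bars for the SE of the limma fit; the dotted line is the median of all tested genes in all sorted OT-I cells. Ifng is at -3.51 in all sorted OT-I cells and -0.14 in Ttex cells, and Il2 has no circle because it was below the filter.

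To set levels side by side, recovered reads were scaled to library depth (CPM) over the 11048 genes common to both tables, which were otherwise normalized separately. Ifng was at 40.1 and 36.5 CPM in KO-labelled and 409 and 322 in WT-labelled libraries from all sorted cells. Among Ttex libraries it stood at 284 and 268 in KO-labelled and 296 and 324 in WT-labelled libraries. The KO-labelled libraries from all sorted cells were thus the low ones, and the other 6 lay between 268 and 409.

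Divided by exon length as well (RPKM), the order of the genes differed with the group. In WT-labelled all sorted OT-I cells Ifng came first, at a mean of 282 RPKM, ahead of Ltb at 199 and Fasl at 71.6. In KO-labelled all sorted OT-I cells Ltb led at 194.5, Fasl followed at 72.9 and Ifng came next at 29.6. In Ttex cells Ltb led in both genotypes, at 295 in KO-labelled and 278.5 in WT-labelled cells, with Ifng at 213 and 240 and Fasl at 52.5 and 59.9. Csf2, Tnf, Lta, Tnfsf10 and Tnfsf14 lay between 4.30 and 22.0 in every group, where neighbours such as Tnf and Lta were close in level, and Il10 and Il2 came last in every group.

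As a share of the summed level of the 10 genes, Ifng made up 7.91% and 8.44% in KO-labelled and 48.4% and 42.4% in WT-labelled all sorted OT-I cells. In Ttex cells its share was 32.9% and 33.2% in KO-labelled and 35.9% and 38.9% in WT-labelled libraries. The sum of the other 9 genes was 361 and 306 against 337 and 337 RPKM in all sorted OT-I cells, so on this scale the lower total in KO-labelled libraries was in Ifng. In the deposited FPKM, the KO-labelled mean was lower for every tested member but Tnfsf14, so the statement depends on the scaling. These shares were computed after the members' values were seen.

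**Figure D4:**
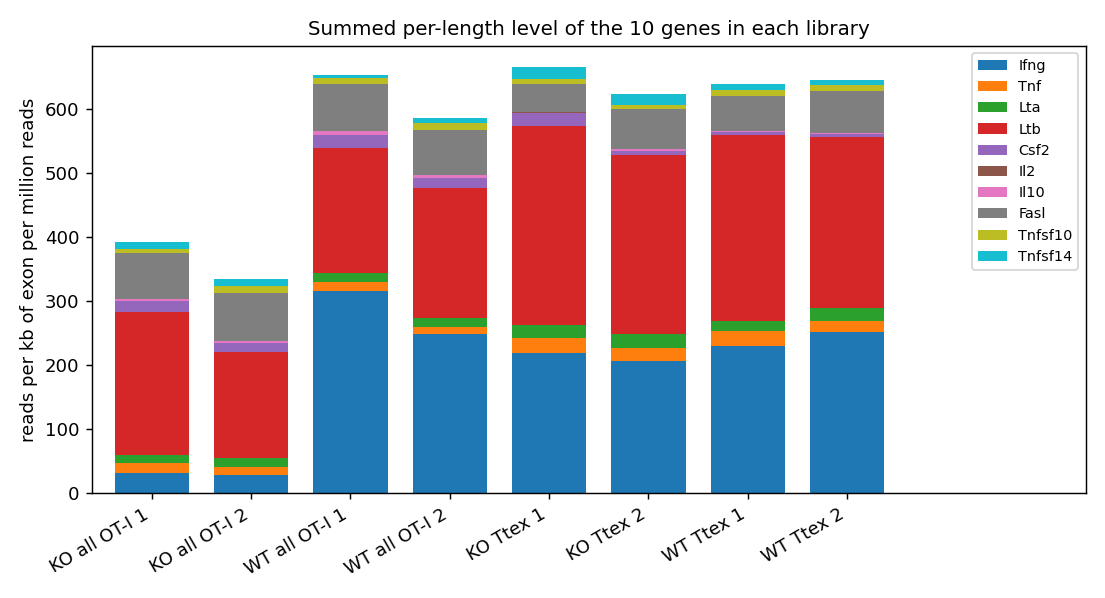
Level of each gene in RPKM, reads scaled to exon length and library depth, over genes common to both tables, stacked for each of the 8 libraries. The Ifng segment makes up 7.91% and 8.44% of the 2 KO-labelled libraries from all sorted cells and 32.9% to 48.4% of the other 6.

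AU-rich elements in the 3' UTR, built from ATTTA in the DNA sequence, mark many cytokine transcripts for rapid decay. The members were searched for ATTTA after their values were seen. Csf2 held 28.4 copies per kb of 3' UTR, Il2 12, Tnf 10.5, Ifng 9.51, Il10 8.5 and Lta 5.24, while Tnfsf10 held 2, Fasl 1.13, Tnfsf14 0.981 and Ltb 0. The median over 21020 genes was 1.14, and 61.8% of genes had at least 1 copy. The 30-base windows with most copies in 3 of the secreted cytokines show how the elements are arranged, with ATTTA in capitals, at chr10:118445330-118445359 (plus strand), chr17:35199679-35199708 (minus strand) and chr11:54247329-54247358 (minus strand) of mm10.
Ifng: aacctATTTAttaatATTTAaaactATTTA
Tnf: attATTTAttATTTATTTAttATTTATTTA
Csf2: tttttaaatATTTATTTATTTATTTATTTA
In these windows Tnf and Csf2 hold overlapping copies, and those of Ifng are spaced apart. Of these 3 genes, Ifng changed most and Tnf least between the genotypes in all sorted OT-I cells. A relation between ATTTA copies and the genotype changes was not tested.

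Of 14 genes that regulate cytokine mRNA decay, 9 were called lower in KO-labelled all sorted OT-I cells and 0 higher. Over all genes, 30.4% were called lower. The median was -0.59, against -0.24 over all genes. After centring 5 were called lower, against 11.9% of all genes. Zfp36l2, which encodes an ATTTA-binding protein that promotes decay, was at 2.18 and 1.94 against 6.93 and 6.75 FPKM (-1.36, limma adjusted p = 8.44e-15). The ATTTA-binding Hnrnpd was at -1.35 and the decay factor Khsrp at -1.22. The deadenylase subunits Cnot1 (-0.76) and Cnot6l (-0.62), the stabilizing Elavl1 (-0.65), N4bp1 (-0.68), and Rc3h2 (-0.57) and Rc3h1 (-0.36), which encode Roquin proteins, were also lower. In Ttex cells 0 of 14 were called by limma, edgeR or DESeq2, and 0 had an unadjusted p under 0.05.

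Of 38 tested transcription factors and cytokine receptors that regulate cytokine genes, 8 were called lower in KO-labelled all sorted OT-I cells and 0 higher. This was a smaller share than the 30.4% of all genes called lower, and the median was -0.13. After centring 4 were called lower and 2 higher, against 11.9% and 10.7% of all genes. The AP-1 member Jund was at 2.74 and 2.14 against 10.4 and 9.49 FPKM (-1.67, limma adjusted p = 2.28e-20). The NF-kB genes Nfkb1 (-0.98) and Rel (-0.44), the AP-1 genes Fosb (-0.75) and Fosl2 (-0.56), the NFAT genes Nfatc3 (-0.72) and Nfatc2 (-0.42), and the T-box gene Eomes (-0.64) also fell. Tbx21, which encodes the T-box factor T-bet, an activator of Ifng, was at 64.3 and 42.1 against 49.6 and 66.5 FPKM, and overlapped between the genotypes. In Ttex cells 0 of 40 were called by limma or edgeR, with 8 lower at an unadjusted p under 0.05 (1789 of 12559 genes in either direction) and 1 lower by DESeq2, which called 0.544% of all genes lower.

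Of 13 tested receptor genes for the members, 1 was called lower in KO-labelled cells before the Tim-3 gate, against 30.4% of all genes. This was the GM-CSF receptor gene Csf2ra, at 3.05 and 1.77 against 3.30 and 4.19 FPKM (-0.50, limma adjusted p = 0.00757). Its adjusted p-values were 0.0779 by edgeR and 0.169 by DESeq2. After centring 0 were called lower and 2 higher, against 11.9% and 10.7% of all genes. Below the filter, edgeR and DESeq2 called 2 other receptor genes lower, Csf2rb2 and Ifngr2. Ifngr2, which encodes the signalling chain of the interferon gamma receptor, was at 0.247 and 0.377 against 0.755 and 0.994 FPKM (edgeR -1.38, adjusted p = 0.00723); both genes were named after their values were seen. Ifngr1, which encodes the ligand-binding chain of the interferon gamma receptor, was at 149 and 132 against 156 and 164 FPKM. In Ttex cells 0 of 16 were called by limma or edgeR. At an unadjusted p under 0.05, 2 were higher and 1 lower, against 1789 of 12559 genes in either direction. DESeq2 called 2 higher, against 2.56% of genes. Ifngr2 was 1 of these, at 430 and 607 against 213 and 234 normalized counts (DESeq2 1.26, adjusted p = 0.00783). Summed myeloid markers were also lower in KO-labelled all sorted OT-I cells and higher in KO-labelled Ttex cells, and their part was not tested.

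Of 18 other cytokine and ligand genes tested in KO-labelled all sorted cells, 7 were called lower and 1 higher. Over all genes, 30.4% were called lower and 2.45% higher. The median of these 18 genes was -0.30. After centring 3 were called lower and 2 higher, against 11.9% and 10.7% of all genes. The chemokine genes Ccl1 (-1.26), Ccl4 (-1.03), Ccl3 (-0.98), Ccl5 (-0.69) and Xcl1 (-0.61), with Mif (-0.70) and Ebi3 (-0.61), fell. Ccl4 was at 1087 and 843 against 2297 and 1664 FPKM, with no overlap. Tnfsf8, which encodes CD30 ligand, rose (0.47, limma adjusted p = 0.0107). In Ttex cells 0 of 21 were called by limma or edgeR. At an unadjusted p under 0.05, 5 were higher and 2 lower, against 1789 of 12559 genes in either direction. DESeq2 called 2 higher and 1 lower, against 2.56% and 0.544% of genes.

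Of 18 tested interferon gamma target genes, 3 were called lower in KO-labelled all sorted OT-I cells and 0 higher. This was a smaller share than the 30.4% of all genes called lower. The median was -0.24, that of all genes. The chemokine gene Cxcl9 was at 1.45 and 1.53 against 5.88 and 5.13 FPKM (-1.38, limma adjusted p = 2.64e-16), Cxcl10 was at -0.80 and the GTPase gene Iigp1 at -0.48. Myeloid cells also express Cxcl9 and Cxcl10, and the myeloid markers were lower in the same libraries; their part was not tested. In Ttex cells 0 of 18 were called by limma, edgeR or DESeq2. At an unadjusted p under 0.05, 2 were higher and 1 lower, against 1789 of 12559 genes in either direction.

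The genes most like Ifng, by the Euclidean distance between the pairs of log2 fold changes in the 2 populations over 8958 genes, were Hnrnpab, Odc1, Csrp1, Ugcg and Eif3b, at distances of 1.52 to 1.66. Their changes in all sorted OT-I cells, from -1.99 to -1.85, were all smaller than that of Ifng. Hnrnpab was at 7.07 and 6.17 against 31.3 and 27.3 FPKM, and its change in Ttex cells was -0.17.

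Neighbouring genes were examined after the members' values were seen. Within 1000 kb of Ifng, Rap1b (-1.73), Dyrk2 (-0.67) and Cand1 (-0.55) were lower and Cpm (0.57) was higher in KO-labelled all sorted OT-I cells. The neighbours Mdm2, Slc35e3, Nup107 and Mdm1 were tested and not called. Within 50 kb of Tnf, the myeloid genes Lst1 (-1.21) and Aif1 (-1.17) and the gene Prrc2a (-0.88) were lower. Tnf, Lta, Ltb, Nfkbil1, Atp6v1g2 and Ddx39b were not called there. Over all genes tested, 30.4% were called lower and 2.45% higher, and neither region was tested as a set. By annotation, Csf2 overlaps the antisense gene Gm12223, Il2 overlaps Adad1 on the other strand and Ifng overlaps Gm49751, and the sources used here do not state if the authors' counting used strand, so reads of these genes may be shared.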

How the data were processed

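Per the labels' protocols, RNA was extracted with TRIzol, and BGI made and sequenced the libraries. The submitters' processing notes name mm10, Bowtie2, RSEM, featureCounts, DESeq2 and Trim Galore 0.4.4, with no roles. For all sorted OT-I cells the authors deposited values whose form is FPKM: with GENCODE M21 exon lengths, 98.45 to 98.56% of values per library gave whole reads within 0.1 read. The same deposited table holds the authors' DESeq2 log2 fold changes, their standard errors and Wald statistics (a score), p-values and a mean normalized signal, per the file headers. For Ttex cells the authors deposited a normalized signal, counts divided by a size factor per library, and 100.0% of values gave whole reads within 0.01 read. No Ttex value is 0 and 168 rows stand at the smallest step in all 4 libraries, so the lowest values may include an added count.

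Two-sided limma-trend tests (limma 3.58.1) were run on log2(value + 1) for every gene whose mean reached 1 FPKM or 10 normalized counts. P-values were adjusted by Benjamini-Hochberg over all of these, with calls under 0.05. Such fold changes understate those of low genes. The prior degrees of freedom in limma were 4.48 for Ttex cells, 9.12 for the interaction and infinite for all sorted OT-I cells. edgeR 4.0.16 (quasi-likelihood) and DESeq2 1.42.0 were run on recovered reads. Named genes are the 10 members, the called genes of each list, examples by level and the 5 genes nearest to Ifng. Members and lists were chosen with earlier results of these data known. Replicates of a group differed by more than sampling noise. Scripts were tested on simulated data.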

Additional observations from a re-analysis of the deposited data

Results flagged for a closer look

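The genotype effect on Ifng differed between the populations by the test of the difference itself: the log2 fold change was 3.36 higher in Ttex cells than in all sorted OT-I cells (SE 0.25, limma adjusted p = 1.45e-05, interaction term). Ifng was lower in 2 of 2 KO-labelled libraries in each population, at -3.51 in all sorted OT-I cells and -0.14 in Ttex cells. The change in Ttex cells was not called (limma adjusted p = 0.619). Population coincides with the processing of the values, so the interaction term carries both. No group had the 4 samples needed to look for single libraries far from the rest.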

How the results depend on the processing

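Ifng was lower in all sorted OT-I cells in all 12 alternative fits (-3.67 to -3.25), Il10 in all 12 (-0.95 to -0.53), and the Ifng difference between populations was called in all 13. Csf2 in all sorted OT-I cells was called in 4 of 12. In all sorted OT-I cells, 3144 genes were called (235 higher, 2909 lower). With no filter on low values 1651 were higher. Centring gave 1027 higher and 1141 lower, and upper-quartile scaling 1943 (803 and 1140). Higher calls numbered 1782 with edgeR, 694 with DESeq2 and 744 in the authors' deposited table. Members higher numbered 1 with centring, upper-quartile scaling or the replicate block, which made 5 lower. The block added calls for Tnfsf10 (limma adjusted p = 0.0356), Ltb (0.0472) and Tnfsf14 (0.0473). Leaving out a library gave 1602 to 2726 calls (105 to 300 higher, 1497 to 2618 lower), with 0 to 1 member higher and 2 to 4 lower, the fewest without WT-labelled replicate 1. In Ttex cells, 3 genes were called (2 higher, 1 lower), against 0 (0 and 0) with no filter, 15 (14 higher) with centring, 12 (11) with upper-quartile scaling, 16 (15) with edgeR and 382 (315 and 67) with DESeq2, which called 2 members higher. The replicate block gave 844 (453 and 391), with 1 member higher (Tnfsf14, limma adjusted p = 0.00643). Leaving out a library gave 0 to 26 calls (0 to 25 higher, 0 to 1 lower), with 0 without either KO-labelled replicate. For the difference between populations, 1018 genes were called (930 higher, 88 lower), against 49 lower with no filter, 576 (366 and 210) with centring and 606 and 277 with edgeR. The replicate block gave 1989 (1729 and 260), with 2 members higher, as did a pseudocount of 0.1. Leaving out a library gave 145 to 2342 calls (142 to 1725 higher, 3 to 617 lower), with 1 to 4 members higher, the fewest without WT-labelled replicate 1 of all sorted OT-I cells and the most without KO-labelled replicate 2 of Ttex cells.

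Several uncalled values changed sign. Tnf in all sorted OT-I cells was at 0.14 with centring or upper-quartile scaling and ran from -0.34 to 0.12 with a library left out. Il10 in Ttex cells was at 0.11 with edgeR and 0.10 with DESeq2. The difference between populations was -0.0455 (centring) and -0.078 (edgeR) for Fasl and -0.0352 (edgeR) for Tnfsf10. With a library left out, values in Ttex cells ran from -0.16 to 0.37 for Tnf, -0.0343 to 0.251 for Ltb, -1.12 to 0.72 for Il10 and -0.375 to 0.0108 for Fasl. The differences ran from -0.0479 to 0.477 for Tnf, -0.35 to 1.5 for Il10, -0.0853 to 0.3 for Fasl and -0.21 to 0.52 for Tnfsf10. The cause was not tested for any of these changes. Same-numbered libraries deviated together weakly (correlations of 0.299 and 0.139), with 2 pairs and no label that ties the numbers, so the replicate block shows only how the calls move. Where a group was left with 1 library, it was assumed to vary like the others. Depth limits Il2, which had 4 to 9 reads in all sorted OT-I cells.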
